A study of Mus musculus with 9 samples.

Results

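The genes described here are 9 components of the transforming growth factor beta (TGF-beta) system in mouse osteosarcoma, taken by symbol from the 55367 genes of the deposited count table. They are the ligand genes Tgfb1, Tgfb2 and Tgfb3, the receptor genes Tgfbr1 and Tgfbr3, the latent TGF-beta binding protein (LTBP) genes Ltbp1, Ltbp2 and Ltbp3, and Tgfbi, a matrix protein gene named for its induction by TGF-beta. All 9 had enough counts to be tested. RNA-Seq was performed on whole spontaneous tumors from a pair of genetically engineered mouse models (GEMMs), to characterize what MYC adds to osteosarcoma. F187, F325, F331 and F368 were the 4 p53-driven tumors, which carried Col2.3-Cre/Trp53fl/+, spelled Col2.3-Cre/TrpP53fl/+ in the sample labels, in which the osteoblast promoter Col2.3 drives Cre and 1 Trp53 allele is floxed. The tumors of the Myc-knockin model, M351, M408, M9, M624 and M664 (n = 5), carried in addition a Lox-Stop-Lox (LSL) c-MycT58A allele, which the same Cre switches on and whose protein lacks a phosphorylation site that marks MYC for degradation. Cre and the floxed p53 allele (p53fl/+) were thus shared by both groups. Recombination was directed to the osteoblast lineage, while the RNA came from every cell of the tumor. The labels give no age, and nothing says whether a group's tumors came from 1 litter or several.

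TGF-beta is secreted in a latent form, in which the cleaved propeptide still wraps the growth factor and is bound through an LTBP to fibrillin and fibronectin in the matrix. Integrins that contain the alpha v chain and matrix proteases release it, and the free ligand binds TGFBR2, which phosphorylates TGFBR1, the kinase that in turn activates SMAD2 and SMAD3. Bone matrix is a major store of latent TGF-beta, laid down by osteoblasts and released when osteoclasts resorb bone.

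The libraries differed in depth and composition. Counts on genes ranged from 2716322 to 17073285 per tumor, and a floor of 3 counts corresponded to 0.114 CPM in M624 and 2.39 CPM in M9 in TMM-normalized CPM, the count divided by edgeR's normalized library size, which is used for all levels below. Satellite-repeat genes took 23.2% to 81.0% of the counts in F187, M351, M408 and M9 and at most 0.0242% in the other 5 libraries. These 4 libraries were those with more than 1% of counts on Gm10800. The 12 genes were then picked for reaching 10 CPM of total counts in each of the 4, and 20 times the highest other library. The contrast between the classes is therefore set by this choice and not by an annotation of repeats. Rn7sk RNA, which is not polyadenylated, was at 5.33 and 9.32 CPM in M624 and M664 and at 8858 CPM or more in the other 7, so these Myc-knockin libraries stand apart in the RNAs they hold. The column names match no sample label. The p53-driven names, M408 and M624 are listed in the study's supporting data as cell lines of their genotype, and the columns were placed by those names. M351, M9 and M664 were placed by the letter M. Myc, the targeted gene, was at 43.5 to 67.1 CPM in the p53-driven tumors and at 144 to 1045 CPM in the Myc-knockin tumors (log2 fold change 3.41, standard error 0.59, edgeR adjusted p = 0.0217). Xist had 5152 to 7939 counts in F325, F331 and F368 and 745 in M351, all with at most 1 count of Ddx3y, and the labels give no sex.

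The promoter letters of these genes are shown because MYC binds CACGTG and SMAD3 and SMAD4 bind sequences that hold CAGACA. RefSeq promoters of GRCm38.p6, which run from 250 bases before to 50 bases after a start, were found for 7 of the 9 genes, as 9 promoters in all, with none for Tgfb3 and Tgfbr3. Both motifs were searched on both strands, CACGTG being its own reverse complement and CAGACA reading TGTCTG on the other strand. CACGTG was in 1 of the 9 promoters and in 7.15% of all 32851. CAGACA was in 4 of the 9 and in 21.04% of all. The windows below each hold 30 bases around the match, which is in capitals, and are written 5′ to 3′ on the strand of the gene.
Tgfb2, chr1:186706023-186706052, minus strand: gttgaaggcaaaCACGTGgtttggggagca
Tgfb2, chr1:186706176-186706205, minus strand: ccttggtgatcaCAGACAgtgactactgca
Tgfbr1, downstream start, chr4:47386001-47386030, plus strand: tttcgaactcagCAGACAgccccacggtcc
Ltbp1, downstream start, chr17:75178620-75178649, plus strand: attacatctgccTGTCTGtcgggggttggc
Ltbp1, downstream start, chr17:75178671-75178700, plus strand: gatgttgctcttTGTCTGcccgtgaataaa
Ltbp3, chr19:5740887-5740916, plus strand: gttcttttgagtCAGACActggatcctggg
A match is a description of the letters and not evidence that a factor binds there.

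The study examined miR-17-5p and miR-20a-5p, microRNAs of a cluster known to be activated by MYC. Their RefSeq mature sequences share the seed, bases 2 to 8, shown in capitals.
mmu-miR-17-5p: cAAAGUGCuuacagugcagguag
mmu-miR-20a-5p: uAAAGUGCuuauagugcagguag
A match to this seed (GCACTTT in the genome's letters) was in the annotated 3′ UTR of 0 of the 9 genes, and the 3′ UTR of Tgfbr1 has 4154 bases, a length at which 30.03% of 3′ UTRs hold a match. Tgfbr2, which encodes the receptor that binds the ligand and is not among the 9, holds 1 match, at chr9:116090062-116090091 on the minus strand of mm10, with an A after it. Its 3′ UTR has 6085 bases, a length at which 41.79% of 3′ UTRs hold a match.
Tgfbr2: caataacgtttGCACTTTattaatgcctgt

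Tgfbr1 and Ltbp1 fell in the Myc-knockin tumors, by 4.57-fold and 6.44-fold, and no tumor of either group overlapped the other. The 3 ligand genes, Tgfbr3, Ltbp2, Ltbp3 and Tgfbi did not pass the test. A call required an adjusted p below 0.05 (edgeR, quasi-likelihood, adjusted by Benjamini-Hochberg across the 15365 genes tested) together with a change above 1.5-fold. Of the 9 genes 2 were called, both lower, where 3.00% of all tested genes were called lower, 2.26% higher and 5.27% in either direction. Groups without overlap, lower in Myc knockin, were found for the same 2 genes and for 7.54% of all tested genes. In 7 of the 9 the log2 fold change was below 0, with a median of -0.82, against a median of 0.14 over all tested genes under TMM and 0.03 with scaling by library size alone.

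**Figure D1:**
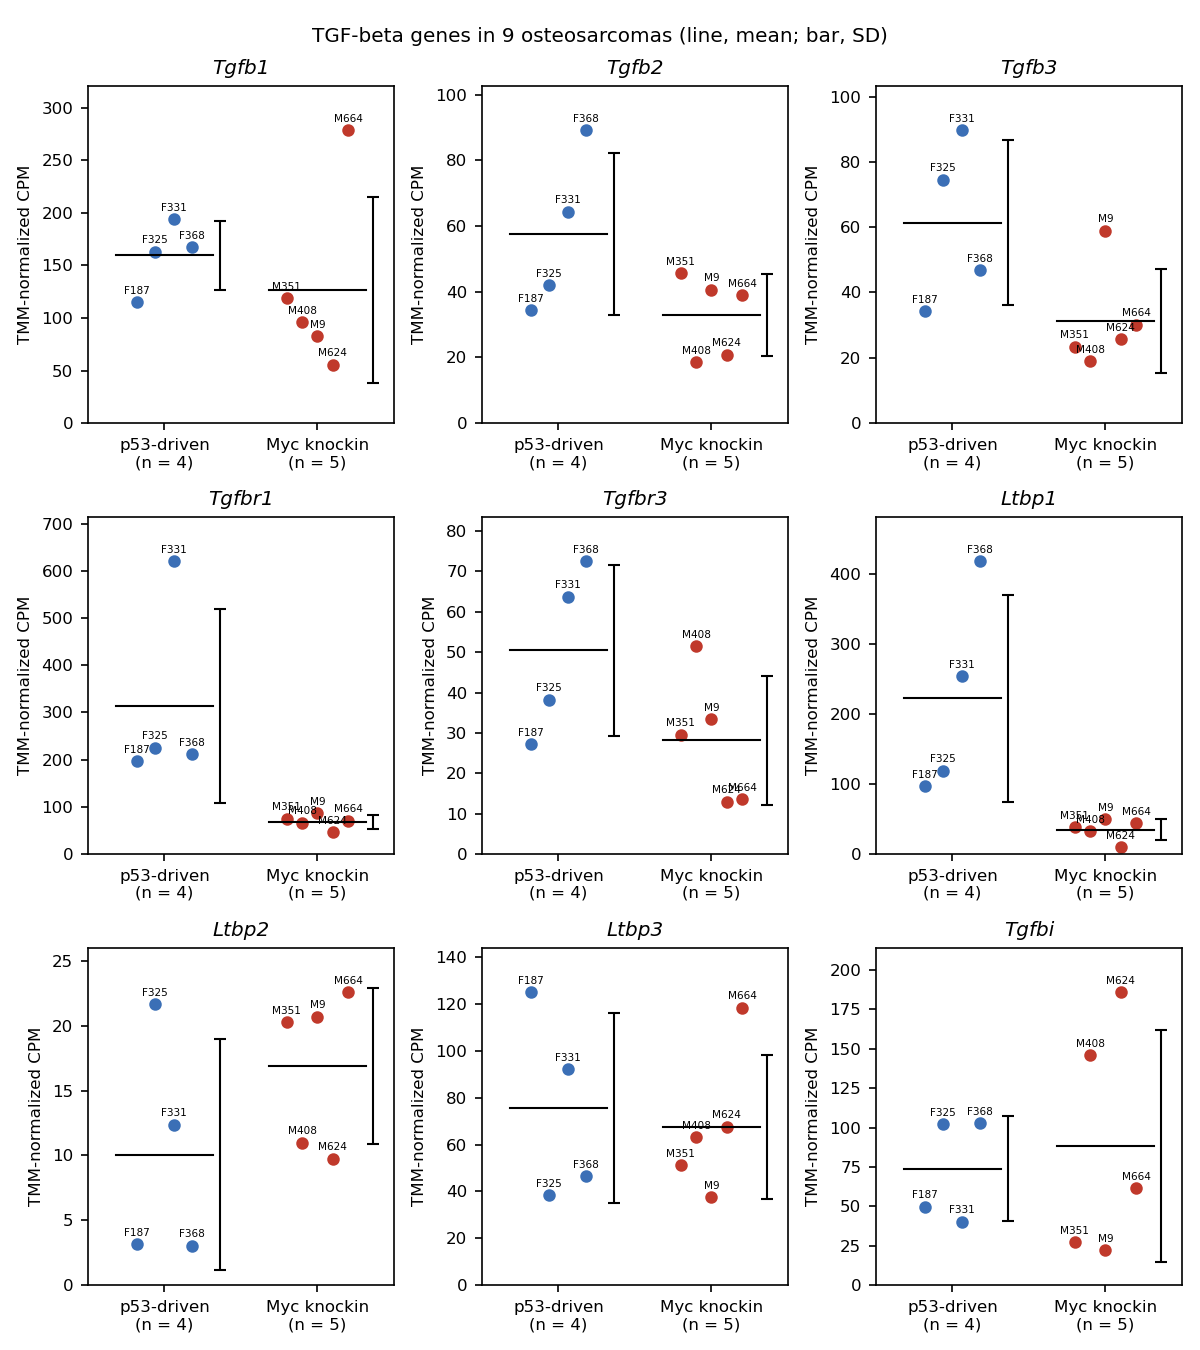
TMM-normalized CPM (vertical axis, from 0) of the 9 TGF-beta genes in each of the 4 p53-driven and 5 Myc-knockin tumors; each point is 1 tumor, the line is the group mean and the bar beside it the SD. Tgfbr1 and Ltbp1 separate the groups, with the highest Myc-knockin tumor at 86.0 and 49.4 CPM and the lowest p53-driven tumor at 197 and 96.4 CPM, while the other 7 genes overlap.

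Among the receptors, Tgfbr1 encodes the type I receptor kinase (ENSMUSG00000007613, chromosome 4 of mm10, 47353222 to 47414931, plus strand). Its levels in the p53-driven tumors were 197 CPM in F187, 225 in F325, 621 in F331 and 212 in F368. In the Myc-knockin tumors they were 75.1 CPM in M351, 66.5 in M408, 86.0 in M9, 45.9 in M624 and 70.6 in M664. F331 stood far above the other p53-driven tumors, whose values lay close together, and all 5 Myc-knockin tumors were below the lowest of them. The means were 314 ± 205 CPM (SD, n = 4) and 68.8 ± 14.7 CPM (SD, n = 5), giving a log2 fold change of -2.19 (standard error 0.40, 95% interval -3.07 to -1.32, edgeR adjusted p = 0.0223). Without F331 the log2 fold change was -1.62 (adjusted p = 0.0640). The call was also lost without F325 (adjusted p = 0.0647) and without F368 (adjusted p = 0.0674), settings in which 8 and 5 genes were called in the whole table, and 6 without F331.

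Tgfbr2 (ligand-binding type II receptor) was read from the same comparison because TGFBR1 signals for TGF-beta in complex with it. It was at 131 to 246 CPM in the p53-driven tumors and at 56.6 CPM in M351, 70.5 in M408, 49.4 in M9, 30.5 in M624 and 101 in M664. These groups did not overlap either, and the log2 fold change was -1.52 (standard error 0.36, edgeR adjusted p = 0.0392). With single tumors left out, Tgfbr2 was called in 2 of 9 fits, without M9 and without M664. The value ranged from -1.74 to -1.27, and the call was lost without F187 (adjusted p = 0.0628), F325 (0.111), F331 (0.134), F368 (0.113), M351 (0.0654), M408 (0.0506) or M624 (0.0640). Of the 4 other receptor genes listed, Tgfbr2 was the only one called, and Eng (log2 fold change -0.90), Acvrl1 (-0.62) and Tgfbrap1 (-0.27) overlapped between groups.

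Tgfbr3 encodes betaglycan, a co-receptor with a short cytoplasmic tail that presents ligand, TGF-beta 2 above all, to the signaling receptors (ENSMUSG00000029287, chromosome 5, 107106570 to 107289629, minus strand). It was at 27.3 CPM in F187, 38.2 in F325, 63.7 in F331 and 72.6 in F368, against 29.5 in M351, 51.5 in M408, 33.5 in M9, 13.0 in M624 and 13.6 in M664. Only M624 and M664 were below the lowest p53-driven tumor, and the other 3 Myc-knockin tumors were within the p53-driven range. Its log2 fold change was -0.86 (standard error 0.45, 95% interval -1.86 to 0.14, edgeR adjusted p = 0.253). Among the 5 libraries with few satellite reads, where the Myc-knockin tumors are M624 and M664, it was -2.11 (adjusted p = 0.0133, with 12.1% of genes called lower), and among the other 4 it was 0.50 (adjusted p = 0.992). The difference between these values was 2.63 (edgeR interaction term, adjusted p = 0.109), which does not pass the threshold. Among the 5 libraries with few satellite reads, Rn7sk was at 5.33 and 9.32 CPM in the Myc-knockin tumors and at 8858 CPM or more in the p53-driven tumors. Genotype and library composition cannot be told apart there.

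Per kilobase of exon, the scale on which genes can be compared, the summed level of Tgfbr1, Tgfbr2 and Tgfbr3 was 52.5 to 135 CPM per kb in the p53-driven tumors and 12.7 to 26.6 in the Myc-knockin tumors. Tgfbr1 made up 59.5% ± 7.46 (SD, n = 4) of this sum in the p53-driven tumors and 48.1% ± 7.35 (SD, n = 5) in the Myc-knockin tumors. Its share therefore overlapped between groups (54.4% to 70.5% against 38.2% to 55.2%) where its level did not.

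The LTBPs hold latent TGF-beta in the matrix, and Ltbp1 encodes a member that binds the latent form of the ligands (ENSMUSG00000001870, chromosome 17, 75005568 to 75392512, plus strand). It was at 96.4 CPM in F187, 119 in F325, 254 in F331 and 418 in F368. The Myc-knockin tumors had 38.2 CPM in M351, 32.8 in M408, 49.4 in M9, 9.94 in M624 and 43.6 in M664. The p53-driven tumors thus spread 4.34-fold among themselves, M624 was the lowest of all, and the groups did not overlap. The means were 222 ± 148 CPM (SD, n = 4) and 34.8 ± 15.2 CPM (SD, n = 5), giving a log2 fold change of -2.69 (standard error 0.53, 95% interval -3.86 to -1.51, edgeR adjusted p = 0.0264). The call was lost without F325 (adjusted p = 0.0709), F331 (0.0931) or F368 (0.103). In M351 and M9, the shallowest Myc-knockin libraries, Ltbp1 had 62 counts each, of which 12.0 and 13.3 counts were the background estimated from chemosensory receptor genes.

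Ltbp2 encodes a family member that binds fibrillin but not latent TGF-beta (ENSMUSG00000002020, chromosome 12, 84783212 to 84876532, minus strand). Its levels were 3.16 CPM in F187, 21.7 in F325, 12.4 in F331 and 3.04 in F368, against 20.3 in M351, 10.99 in M408, 20.7 in M9, 9.75 in M624 and 22.6 in M664. F187 and F368 were the lowest of the 9 tumors, and all Myc-knockin tumors but M664 lay within the p53-driven range. This gave a log2 fold change of 0.71 (standard error 0.58, 95% interval -0.57 to 1.99, edgeR adjusted p = 0.466). Ltbp2 was also the scarcest of the 9 genes, with 8 counts in F187 where 5.83 background counts were estimated, and 26 counts in M9 with 10.2 estimated.

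Ltbp3 encodes a binding protein needed for normal TGF-beta release in bone growth (ENSMUSG00000024940, chromosome 19, 5740904 to 5758532, plus strand). It was at 125 CPM in F187, 38.4 in F325, 92.1 in F331 and 46.6 in F368, and at 51.1 in M351, 63.2 in M408, 37.4 in M9, 67.6 in M624 and 118 in M664. The ranges nearly coincided, from 38.4 to 125 and from 37.4 to 118 CPM. Here the log2 fold change was -0.15 (standard error 0.42, 95% interval -1.07 to 0.78, edgeR adjusted p = 0.856), and its sign turned under other settings.

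Per kilobase of exon, Ltbp1, Ltbp2 and Ltbp3 summed to 18.01 to 44.6 CPM per kb in the p53-driven tumors. Their sum was 9.58 to 19.9 CPM per kb in the Myc-knockin tumors. Ltbp1 made up 63.8% ± 20.1 (SD, n = 4) of the summed level in the p53-driven tumors and 25.7% ± 11.6 (SD, n = 5) in those with Myc knockin. The shares overlapped only through M9 (41.0%) and F187 (38.8%). Ltbp3 made up 30.8% ± 20.4 and 57.9% ± 15.9. F187 was the p53-driven tumor in which Ltbp3 was the larger part, at 59.5%, and M9 was the Myc-knockin tumor in which Ltbp1 was, at 41.0% against 36.6%. These shares are a description and were not tested.

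**Figure D2:**
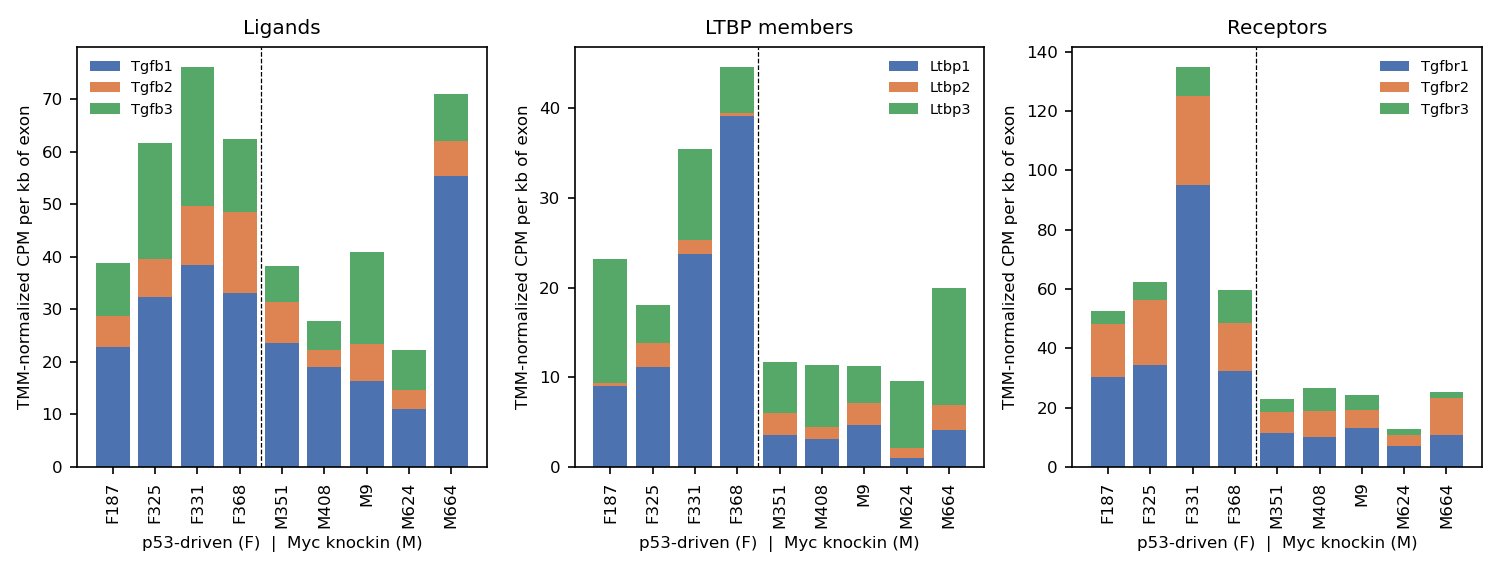
Stacked levels of the ligand genes, of Ltbp1, Ltbp2 and Ltbp3 without Ltbp4, and of the receptor genes in each tumor. Vertical axes show TMM-normalized CPM per kilobase of exon, from 0. The dashed line separates 4 p53-driven (F) from 5 Myc-knockin (M) tumors. The receptor sums are 52.5 or more to the left and 26.6 or less to the right, whereas the ligand sum of M664 (71.0) lies within the p53-driven range.

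Tgfb1 encodes the ligand most abundant in bone matrix (ENSMUSG00000002603, chromosome 7, 25687002 to 25705077, plus strand). It was at 115 CPM in F187, 163 in F325, 194 in F331 and 167 in F368. The Myc-knockin tumors had 119 CPM in M351, 96.1 in M408, 82.9 in M9, 55.7 in M624 and 279 in M664. M664 was the highest of all 9 tumors, 3 Myc-knockin tumors lay below every p53-driven tumor, and the Myc-knockin group spread 5.01-fold against 1.69-fold. The means were 160 ± 33.0 CPM (SD, n = 4) and 127 ± 88.3 CPM (SD, n = 5), giving a log2 fold change of -0.33 (standard error 0.43, 95% interval -1.29 to 0.62, edgeR adjusted p = 0.656). Without M664 it was -0.83 (adjusted p = 0.119).

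Tgfb2 encodes the ligand that depends most on betaglycan (ENSMUSG00000039239, chromosome 1, 186622792 to 186705989, minus strand). Its levels were 34.4 CPM in F187, 41.9 in F325, 64.4 in F331 and 89.2 in F368, and 45.5 in M351, 18.5 in M408, 40.6 in M9, 20.8 in M624 and 38.9 in M664. M408 and M624 were below every p53-driven tumor and the other 3 were within the p53-driven range. For Tgfb2 the log2 fold change was -0.82 (standard error 0.37, 95% interval -1.64 to 0.00087, edgeR adjusted p = 0.187).

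Tgfb3, the third ligand gene, best known from palate fusion and wound repair (ENSMUSG00000021253, chromosome 12, 86056745 to 86079041, minus strand), was at 34.4 CPM in F187, 74.6 in F325, 89.8 in F331 and 46.8 in F368. It was at 23.4 CPM in M351, 18.9 in M408, 59.0 in M9, 25.6 in M624 and 30.1 in M664. M9 fell among the p53-driven tumors, and the other 4 Myc-knockin tumors were below all of them. The log2 fold change was -0.99 (standard error 0.39, 95% interval -1.85 to -0.13, edgeR adjusted p = 0.136). It was called without M9 (log2 fold change -1.32, adjusted p = 0.0389) and in the 5 libraries with few satellite reads (-1.32, adjusted p = 0.0413). In those 5, genotype coincides with the difference in Rn7sk and cannot be told apart from it. Tgfb3 overlaps Ttll5 on the opposite strand, which had 34 to 697 counts per library, and the strand setting of the counting is not given in the sources used here.

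Tgfb1 was the largest ligand transcript per kilobase of exon in 8 of the 9 tumors, and Tgfb3 was in M9. With the longest transcript as length, Tgfb1 was at least 55.9% of the ligand sum in every Myc-knockin tumor, M9 included. Tgfb1 made up 53.7% ± 3.45 (SD, n = 4) of the ligand sum in the p53-driven tumors and 59.6% ± 15.0 (SD, n = 5) in the Myc-knockin tumors, where it ranged from 40.2% in M9 to 78.0% in M664. Tgfb3 made up 29.7% ± 6.65 and 25.5% ± 12.5, and Tgfb2 16.6% ± 5.62 and 15.0% ± 4.46. The proportions of the ligands therefore differed between the groups by less than the spread among the Myc-knockin tumors.

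Tgfbi encodes a matrix protein that binds integrins and collagens and is a classical readout of TGF-beta (ENSMUSG00000035493, chromosome 13, 56609523 to 56639562, plus strand). It was at 49.8 CPM in F187, 102 in F325, 40.3 in F331 and 103 in F368, against 27.1 in M351, 146 in M408, 22.3 in M9, 186 in M624 and 61.5 in M664. The Myc-knockin tumors lay on both sides of the p53-driven range, 2 below it and 2 above it, and spread 8.34-fold. With this spread the log2 fold change was 0.28 (standard error 0.61, 95% interval -1.06 to 1.61, edgeR adjusted p = 0.808), and its sign turned without M624.

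**Figure D3:**
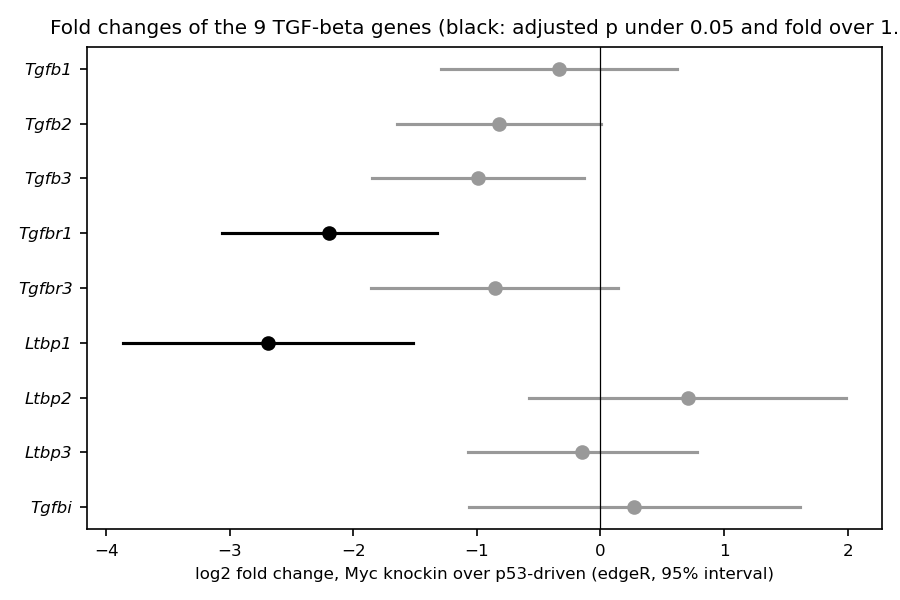
Log2 fold change of each of the 9 genes, Myc knockin over p53 driven (horizontal axis), as the edgeR estimate (point) with its 95% interval (line); black marks an adjusted p under 0.05 with a fold change over 1.5. The intervals of Tgfbr1 and Ltbp1 end at -1.32 and -1.51, and that of Tgfb3 ends at -0.13 without a call after adjustment.

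The order of the levels per kilobase of exon differed between the groups, and it depended on the length used. In the p53-driven tumors Tgfbr1 led at 48.0 ± 31.4 CPM per kb (SD, n = 4), followed by Tgfb1 at 31.7 ± 6.54, Ltbp1 at 20.7 ± 13.9, Tgfbi at 19.6 ± 8.86 and Tgfb3 at 18.1 ± 7.49. Among these 5, neighbours in the order differed by less than the larger of their SDs, and Ltbp2 was last at 1.23 ± 1.09. Tgfbr1 had 95.1 in F331, and in F368 Tgfb1 (33.2) was above Tgfbr1 (32.4). In the Myc-knockin tumors Tgfb1 at 25.1 ± 17.5 (SD, n = 5) and Tgfbi at 23.5 ± 19.5 led. Tgfbr1 had 10.5 ± 2.26 there, and Ltbp1 was next to last at 3.25 ± 1.42, above Ltbp2 at 2.06 ± 0.736. With the longest transcript as length, Tgfb1 was above Tgfbr1 in the p53-driven tumors as well, at 62.1 ± 12.8 against 54.5 ± 35.7 (SD, n = 4).

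In the wider pathway, 65 genes on 5 lists were tested beside the 9, and 11 (16.9%) were called, all lower in the Myc-knockin tumors. Over all tested genes, 3.00% were called lower and 2.26% higher, and these shares apply to each list below. The median log2 fold change of the 65 was -0.76. DESeq2 called 22 of the 65 lower (5.11% of all genes it tested) and 2 higher, Fbn2 and Tgif2 (6.59%). Without M624 and M664, edgeR called 11 of 63 lower (2.81% of all) and 1, Fbn2, higher (1.80%). Within the 4 libraries with many satellite reads, the median log2 fold change of the 64 genes tested was -0.63. That fit holds 1 p53-driven tumor, so its count of calls cannot decide whether these genes differed. Where F325, F331 or F368 was left out, 0 of the 65 were called, with 31, 29 and 28 at an unadjusted p under 0.05. Over all tested genes, 3141 of 16066, 3052 of 16021 and 2845 of 17122 were under that threshold. Of the 9 fits that leave out 1 tumor, Itgav, Mmp2, Dcn, Bgn, Postn and Snai2 were called in 6, Adam12 in 3, and Tgfbr2, Mmp14, Smurf2 and Fn1 in 2.

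The latency and activation list had 3 of 18 tested genes called lower and 0 higher, with a median log2 fold change of -0.61. Itgav, the alpha v chain of the integrins that pull the ligand free, was at 484 to 807 CPM in the p53-driven tumors and 52.5 to 153 CPM in the Myc-knockin tumors (log2 fold change -2.50, edgeR adjusted p = 0.0175). Mmp2 (467 to 756 against 125 to 287 CPM, log2 fold change -1.79) and Mmp14 (835 to 1152 against 110 to 490 CPM, log2 fold change -1.79), matrix proteases able to release latent TGF-beta, also fell, with edgeR adjusted p values of 0.0252 and 0.0412. The gene with the highest value on this list was Fbn2, a fibrillin (log2 fold change 3.14, adjusted p = 0.0587), whose groups overlapped and which was chosen after its value was seen. Furin, whose protease cuts the TGF-beta precursor, had a log2 fold change of -0.21 (adjusted p = 0.737).

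Of the 4 extracellular and membrane antagonists, Dcn and Bgn were called lower, 0 higher, and the median log2 fold change was -2.55. Dcn (decorin) and Bgn (biglycan) encode small matrix proteoglycans that bind TGF-beta. Dcn was at 332 to 1114 CPM in the p53-driven tumors and 3.89 to 99.5 CPM in the Myc-knockin tumors (log2 fold change -3.78, edgeR adjusted p = 0.0265), and Bgn at 1031 to 1843 against 160 to 391.6 CPM (log2 fold change -2.57, edgeR adjusted p = 0.0175). Fmod and Bambi did not pass the test, although no tumor overlapped (469 to 739 against 15.8 to 254 CPM, and 53.6 to 81.0 against 11.6 to 49.8 CPM). Of all tested genes, 7.54% were lower without overlap.

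Among 13 SMAD genes and their regulators, 1 was called lower and 0 higher, with a median log2 fold change of -0.53. The called gene was Smurf2, a ubiquitin ligase that acts on SMADs and on the receptors with SMAD7 (131 to 238 against 48.9 to 98.0 CPM, log2 fold change -1.24, edgeR adjusted p = 0.0365). The signal transducers overlapped between groups, with log2 fold changes of -0.73 for Smad2, 0.43 for Smad3 and -0.41 for Smad4. Ppm1a (49.0 to 65.4 against 70.2 to 103 CPM), a phosphatase of SMAD2 and SMAD3, and Tgif2 (0.700 to 1.58 against 3.11 to 8.42 CPM), a SMAD corepressor, were higher in every Myc-knockin tumor without passing the test (adjusted p = 0.125 and 0.0575), where 5.41% of all tested genes were higher without overlap, and were chosen after their values were seen.

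Of 28 TGF-beta target genes listed, 26 were tested (Tagln and Il11 were not), 4 were called lower and 0 higher, and the median log2 fold change was -0.85. Those that fell were Postn (periostin, log2 fold change -3.54, adjusted p = 0.0223), Snai2 (a transcriptional repressor of the Snail family, -2.75, adjusted p = 0.0255), Fn1 (fibronectin, -2.37, adjusted p = 0.0380) and Adam12 (a membrane metalloprotease, -1.96, adjusted p = 0.0334). Postn was at 551 to 3596 CPM in the p53-driven tumors and 68.7 to 230 CPM in the Myc-knockin tumors, and none of the 4 overlapped. On this list 10 of the 26 were lower without overlap, where 7.54% of all tested genes were. Targets that many cell types induce quickly did not pass the test: Smad7 had a log2 fold change of -0.76 (adjusted p = 0.157), Skil -0.53 (0.471), Ccn2 -0.85 (0.297), and Pmepa1 -1.09 (0.0791, without overlap), all chosen after their values were seen. Postn, Fn1 and the collagen genes of this list are also made in quantity by osteoblasts.

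**Figure D4:**
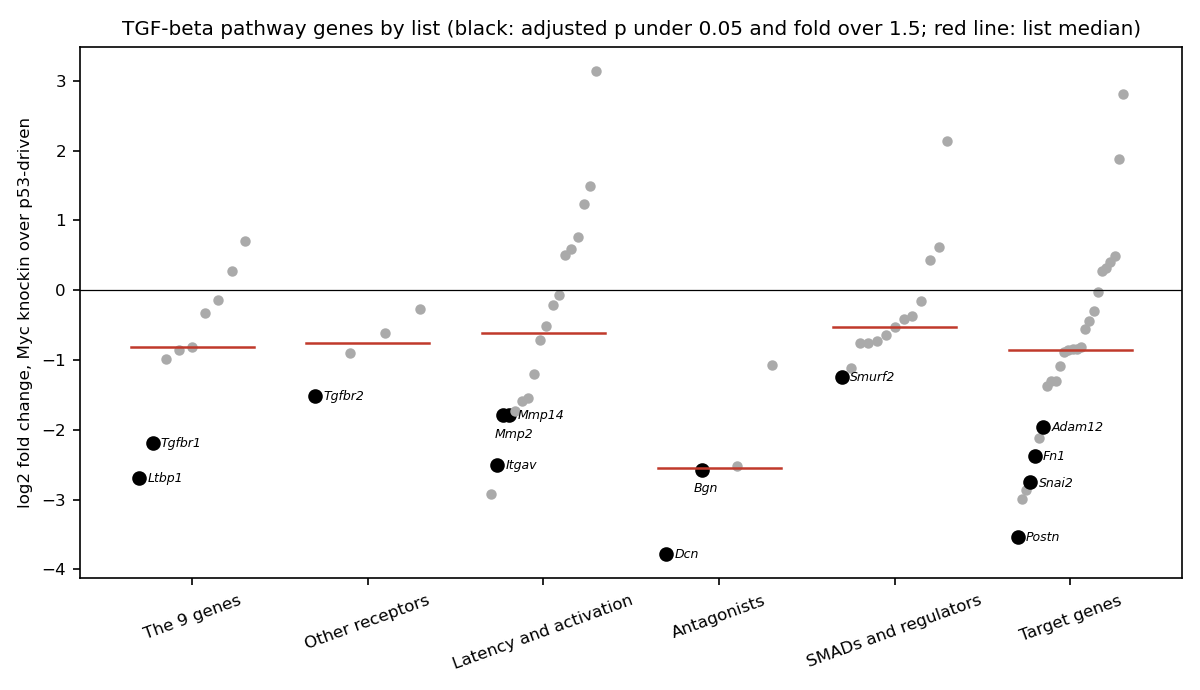
Log2 fold change, Myc knockin over p53 driven (vertical axis), of every tested gene on 6 lists; each point is 1 gene, black and named where edgeR's adjusted p was under 0.05 and the fold change over 1.5, and the red line is the list median. Medians lie from -0.53 (SMADs and regulators) to -2.55 (antagonists), all named genes lie below 0, and each list except receptors and antagonists also holds genes above 0.

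Some markers of bone cells moved with these results. The summed level of 11 osteoblast markers was 47349 to 97061 CPM in the p53-driven tumors and 2457 to 26004 CPM in the Myc-knockin tumors, with 2 of 11 called lower (Bglap and Bglap2, the osteocalcin genes). Col1a1, which is also on the list of TGF-beta targets, made up 50.3% to 95.1% of this sum. Without it, a choice made after seeing the data, the sums overlapped, at 4017 to 8519 CPM and 360 to 5636 CPM, and 6 of the 11 markers overlapped between groups (Sp7, Alpl, Ibsp, Spp1, Dmp1 and Phex). The summed level of 9 osteoclast markers was 2862 to 14440 CPM and 152 to 2617 CPM, with 7 of 9 called lower. Of all tested genes, 3.00% were called lower. Of 10 macrophage markers, Csf1r and Cd68 were called lower, and the sums overlapped (731 to 1419 against 328 to 1123 CPM). Endothelial, pericyte and smooth muscle, skeletal muscle, cartilage, platelet and T cell lists had 0 genes called and overlapping sums. Only 2 of 7 T cell and 2 of 6 platelet markers had enough counts to be tested, so 0 calls there cannot decide whether those cells differed. No listed marker gene was at 0 in every tumor. The part of these cell types in the levels of Tgfbr1, Ltbp1 and the pathway genes was not tested, and in whole tumors fewer cells of a type and less RNA per cell cannot be told apart.

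Tgfbr1 and Ltbp1 were also compared within the technical classes. Without M624 and M664 both remained called, with log2 fold changes of -1.9997 (edgeR adjusted p = 0.0488) and -2.42 (adjusted p = 0.0438), where 2.81% of genes were called lower. Within the 4 libraries with many satellite reads, 1 p53-driven against 3 Myc-knockin tumors, they were -1.42 and -1.31 (adjusted p = 0.992 for each), and edgeR called 0 of 16055 genes, with 701 at an unadjusted p under 0.05. By Xist and Ddx3y, the 3 p53-driven tumors with high Xist had 212 to 621 CPM of Tgfbr1 and the Myc-knockin tumor M351 75.1 CPM. In the other 5 libraries F187 had 197 CPM and the 4 Myc-knockin tumors 45.9 to 86.0 CPM. Ltbp1 followed the same order, at 119 to 418 against 38.2 CPM and at 96.4 against 9.94 to 49.4 CPM.

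The genes whose pattern over the 9 tumors was most like a given gene were found by the root mean square difference in log2 CPM, each gene centred on its own mean, among 9538 genes with a mean of at least 10 CPM. For Tgfbr1 they were Cyp4v3 (0.267), Ext1 (0.292) and Kidins220 (0.300). For Ltbp1 they were Ccn4 (0.366), Aldh1l2 (0.437) and Nrp2 (0.513), and for Tgfb1 they were Tle5 (0.229), Yipf1 (0.243) and Fam43a (0.273). All values share the 9 libraries and their depth and are given as a description.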

How the data were processed

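Whole-tumor RNA of 4 p53-driven and 5 Myc-knockin tumors was sequenced. After trimming with Trim Galore and alignment to mm10 with STAR, the authors used featureCounts to assign reads to genes, and deposited raw counts of 55367 genes in 9 columns. The library kit was stranded; the strand setting of the counting and the handling of reads with several positions are not given in the sources used here. Columns were tied to a group, not to a numbered sample. The p-values set the difference between the groups against the spread between these tumors.

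Counts were tested in R 4.3.3 with edgeR 4.0.16 (TMM, filterByExpr with a minimum count of 10, glmQLFit and glmQLFTest, two-sided, no covariate), with Benjamini-Hochberg adjustment over 15365 genes. The study's methods use DESeq2; here DESeq2 1.42.0 and limma-voom (limma 3.58.1) were alternatives. Other alternatives were upper-quartile and library size scaling, other filters, removal of 12 satellite genes, subtraction of a background estimated per kilobase on 1824 chemosensory receptor genes, subsets of libraries, a satellite covariate, and each tumor left out. The procedure was tested on simulated data. Levels per kilobase use the union of exons of GENCODE M21. Floors of 3 counts cover counting error only.

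All 9 genes were named, with every called gene of each pathway list (up to 4 in each direction) and the 3 genes most like Tgfb1 and each called gene. The 9 genes and the lists were chosen with earlier results of these data known. The seed search was added after the files had been read. Protein sequences were not used here.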

Additional observations from a re-analysis of the deposited data

Results flagged for a closer look

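In 18 groups of 4 or 5 tumors (9 genes in each genotype), 3 tumors lay far from the rest by Dixon's gap test at the 95% level. Chance gives about 1 in 20 groups where groups are independent and values normally distributed. CPM was not transformed here and the groups share the same libraries, so that rate need not hold. Tgfb1 was at 279 CPM in M664, where the rest of the Myc-knockin group had 55.7 to 119 CPM. Tgfb3 was at 59.0 CPM in M9, against 18.9 to 30.1 CPM. Tgfbr1 was at 621 CPM in F331, against 197 to 225 CPM in the other p53-driven tumors. M9 was the library with the most satellite counts, 81.0%, and 671790 counts outside them, and Tgfb3 had 74 counts there with 4.21 background counts estimated; the part of the library's composition in this value was not tested.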

How the results depend on the processing

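Tgfbr1 and Ltbp1 stayed lower in Myc knockin under all 13 other settings and with each tumor left out, while their calls and the number of genes called moved; the cause was not tested. Genes called were 809 (348 higher, 461 lower) and became 971 (626 higher, 345 lower) by upper-quartile scaling, 136 by library size, 2241 by DESeq2, 1663 by voom, 494 with all genes of at least 1 count, 1316 with at least 10 counts in every tumor (785 higher, 531 lower), 4595 without the 4 satellite-rich libraries (2594 higher, 2001 lower), 0 within them and 2016 with satellite class as covariate (1208 higher, 808 lower). Of the 9 genes, 1 was called by library size, 4 without the satellite-rich libraries and 0 in the 6 libraries named in the supporting data. In those 6 libraries, 6 of the 9 had an unadjusted p under 0.05, as did 4752 of 16759 tested genes. By library size, log2 fold changes were -2.43 for Tgfbr1 (adjusted p = 0.0846), 3.63 for Myc (0.0659) and 0.014 for Ltbp3. Without the satellite-rich libraries, where genotype and Rn7sk level cannot be told apart, they were -1.32 for Tgfb3, -2.11 for Tgfbr3 and 0.67 for Ltbp3. Within the satellite-rich libraries they were -1.42 for Tgfbr1, 0.50 for Tgfbr3, -1.31 for Ltbp1 and 2.78 for Myc. In the 6 named libraries they were -2.46 for Tgfbr1 (0.0524) and -3.38 for Ltbp1 (0.0502). Tgfbi was -0.60 by voom and -0.056 without M624 and M664. With the longest transcript as length, the p53-driven ligand shares were 68.4% for Tgfb1 and 19.4% for Tgfb3.

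With single tumors left out, 5 (without F368) to 1588 (without M9) genes and 0 to 3 of the 9 were called. Log2 fold changes ranged from -0.83 to -0.076 for Tgfb1, -1.03 to -0.56 for Tgfb2, -1.32 to -0.74 for Tgfb3, -2.39 to -1.62 for Tgfbr1, -1.20 to -0.60 for Tgfbr3, -2.97 to -2.22 for Ltbp1, 0.37 to 1.41 for Ltbp2, -0.43 to 0.19 for Ltbp3 (above 0 without F187 and without M9, 0.0022), -0.10 to 0.52 for Tgfbi (-0.10 without M624) and 3.15 to 3.66 for Myc. Over the other settings the adjusted p ranged from 1.18e-05 to 0.992 for Tgfbr1 and from 4.75e-05 to 0.992 for Ltbp1, the lowest by DESeq2. Ltbp2 has no value with at least 10 counts in every tumor. No paired analysis was possible because the columns carry no replicate numbers. Depth limits Ltbp2 most, at 8 counts in F187.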
